A study of Mus musculus with 24 samples.

Results

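The response of NIH-3T3 mouse embryonic fibroblasts to 3 h of IFN-gamma was measured against mock-treated cells of the same time, on 3 arrays each, 6 of the 24 arrays of the series. Of 45037 probe sets, the 19305 that passed log2 4 on 3 or more of the 24 arrays were compared, and they gave 9421 genes a value. IFN-gamma raised 434 of these genes by the test used here, with the largest median differences among the lists in the GTPases that attack intracellular parasites, and raised most tested antiviral, chemokine, class I presentation and interferon regulator genes. It lowered 209, by smaller amounts.

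The 3 IFN-gamma arrays came from cells given 100 U/ml IFN-gamma for 3 h, and the 3 mock arrays from cells taken at the same time without interferon. Another group of 3 arrays, from cells given 100 U/ml IFN-alpha for 3 h, shared these mock cells. The cells of all 9 arrays also received 500 uM 4-thiouridine (4sU), a nucleoside taken up into new RNA, from minute 150 to minute 180, so the mock cells were not free of it. Arrays taken after 1 h (4 each of IFN-gamma and mock, with 200 uM 4sU from minute 0 to minute 60) served to compare the times. NIH-3T3 is a single immortalised line and stands for fibroblasts rather than for the macrophages in which IFN-gamma is best known. Total RNA was measured, so a level reports what had accumulated and not how fast it was made.

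IFN-gamma is the cytokine with which T cells and natural killer cells activate other cells against intracellular microbes. It binds a receptor of 2 chains, and the kinases Jak1 and Jak2 then activate STAT dimers, which bind a DNA element called GAS (gamma-activated site). Type I interferons such as IFN-alpha mostly act through ISGF3, a complex of STATs with Irf9 that binds another element, the ISRE (interferon-stimulated response element). In fibroblasts IFN-gamma is known for inducing resistance to parasites and for raising antigen presentation.

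Values are GCRMA signals on the log2 scale, so a difference of 1 is a doubling, and array medians and counts of probe sets above log2 4 were alike at 3 h. For beta-actin the signal at the 3′ end stood 0.80 to 0.97 above that at the 5′ end on the 9 arrays of 3 h. After 1 h it was uneven, 0.78 to 3.43 above with IFN-gamma and 0.84 to 2.99 above in mock cells with 4sU. The brightest probe set of 18S ribosomal RNA read 4.99 to 6.17 on the IFN-gamma arrays, with replicate 3 the highest, against 4.73 to 5.85 on the mock arrays. The median SD of a probe set between replicates was 0.12 with IFN-gamma and 0.13 in mock cells, against 0.40 in both groups of 1 h. Of 34 fibroblast and matrix genes 30 were tested. Of 18 leukocyte markers Cd14 alone exceeded log2 4 at 3 h, and their summed level was 47.8 to 48.4 with IFN-gamma and 48.5 to 49.6 in mock cells. None of 15 epithelial and endothelial markers exceeded log2 4 on these arrays. Whether replicates were separate cultures is not stated in the labels, and a p-value here reflects only array-to-array spread, possibly technical. In such bulk RNA fewer cells of a kind and less RNA per cell cannot be told apart.

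In limma, with Benjamini-Hochberg adjustment over all 19305 probe sets, 434 genes were higher with IFN-gamma than in mock cells at an adjusted p under 0.05, 4.61% of those tested, and 209 were lower, 2.22%. These shares over all genes are to be set beside the counts of each gene list below. The increases were larger than the decreases. Of the higher genes 200 exceeded a log2 difference of 1 and 82 exceeded 2, while 10 of the lower genes passed a difference of -1. The median difference was 0.94 among the higher genes, -0.51 among the lower genes and -0.05 over all genes. The 3 IFN-gamma arrays lay entirely above or below the 3 mock arrays for each of these 643 genes (6.83%), but such separation was common, with 844 of all genes tested entirely above and 1491 entirely below. In probe sets the counts were 779 higher (4.04%) and 348 lower (1.8%), together 1127 (5.84%). The labels state no pairing, and the main fit used none. IFN-gamma and mock arrays of the same replicate number deviated together to an uneven degree (correlations of 0.128, 0.391 and 0.587). With the number as a block 1018 probe sets were higher and 699 lower. In a fit of all 24 arrays, which takes in the wider spread of the 1 h arrays, 363 probe sets were higher and 22 lower, and of the genes called here 205 higher and 13 lower ones still passed. Of the higher genes 79 had a mock mean below log2 4, and a gene at background in mock cells was tested only where it was high on other arrays.

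**Figure D1:**
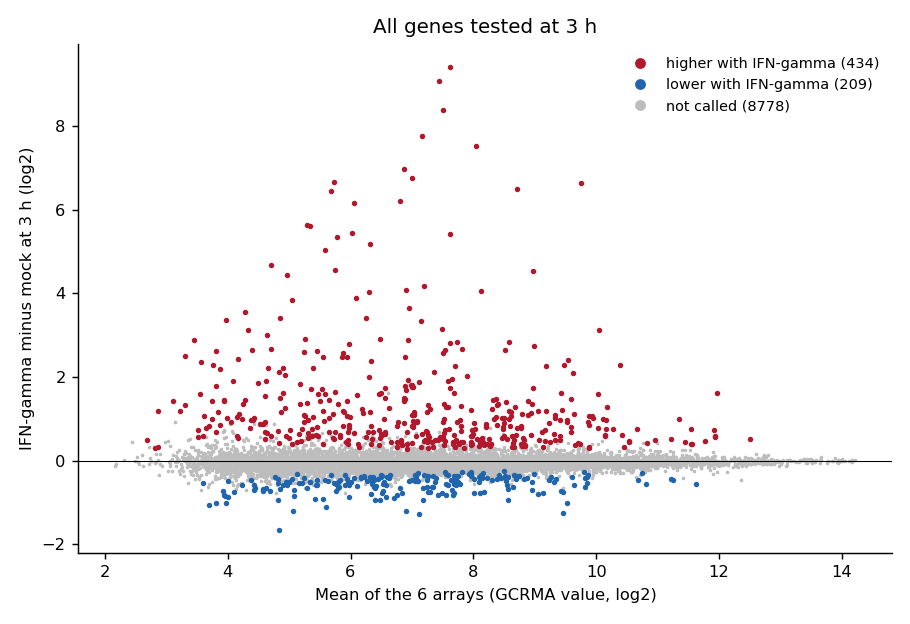
Difference of IFN-gamma minus mock at 3 h (log2, vertical) against the mean of the 6 arrays (log2, horizontal), 1 point per gene. The 434 higher genes reach 9.40 and the 209 lower genes -1.65, while the genes not called scatter about 0.

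The p47 immunity-related GTPases, which coat and break the vacuoles of intracellular parasites, held 4 of the 5 largest differences of any named gene. Iigp1 measured 12.25, 12.40 and 12.31 with IFN-gamma, against 2.81, 2.68 and 3.26 in mock cells, and was at least 319.6-fold higher (9.40 ± 0.13 SE, n = 3 arrays per group, limma adjusted p = 3.63e-10). Igtp measured 11.94, 12.06 and 11.92 with IFN-gamma and 3.03, 3.01 and 2.67 in mock cells (at least 251-fold higher). All mock arrays of both genes lay below log2 4, here taken as background, so their folds are lower bounds computed with those arrays raised to 4. A log2 difference printed for a gene with a group mean below 4 is one of GCRMA values, part of which lies within background. Irgm2, one of the regulatory members that hold the others in check on host membranes, measured 11.80, 11.82 and 11.47, against 3.17, 3.35 and 3.41 in mock cells (at least 207-fold higher). Ifi47 measured 10.998, 11.14 and 11.01 with IFN-gamma and 3.27, 3.31 and 3.25 in mock cells (at least 132-fold higher). Irgm1, another regulatory member, was the only one of these 5 that mock cells held above background. It measured 11.86, 12.02 and 11.999, against 5.43, 5.55 and 5.38, a difference of 6.50 ± 0.09 or 90.8-fold. Irgq, the sixth member tested, measured 7.18, 7.04 and 6.83 with IFN-gamma and 7.02, 7.06 and 6.93 in mock cells, so that the groups overlapped (difference 0.01 ± 0.10, adjusted p = 0.976). The list held 10 genes, of which 1 lay below the filter and 3 had no probe set of their own. Of the 6 tested, 5 were higher, with a median of 8.08 over the 6.

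Guanylate-binding proteins (GBPs), larger GTPases that assemble on vacuoles and on bacteria, were higher for each of the 6 genes tested of 12 listed, with a median of 6.43. Gbp2 reached the highest level, 13.16, 13.10 and 12.96 with IFN-gamma against 6.54, 6.53 and 6.21 in mock cells, and was 100.0-fold higher (6.64 ± 0.12, adjusted p = 1.55e-09). Gbp7 measured 10.49, 10.42 and 10.16, against 3.83, 3.26 and 3.09 in mock cells (at least 82-fold higher). Gbp6 measured 10.37, 10.46 and 10.33 with IFN-gamma and 3.90, 3.37 and 3.58 in mock cells (at least 83.6-fold higher). Gbp3 measured 9.93, 9.90 and 9.89, against 3.77, 3.73 and 3.59 in mock cells (at least 60.1-fold higher). These 4 genes had interferon arrays at least 6 log2 units above every mock array. The other members were dimmer. Gbp2b measured 5.46, 4.77 and 4.46 with IFN-gamma and 2.02, 2.01 and 2.00 in mock cells, and Gbp8 measured 4.30, 4.65 and 4.10, against 2.80, 2.75 and 2.73. Neither passed with values below log2 4 set to 4 (adjusted p = 0.0813 for Gbp2b and 0.202 for Gbp8). The remaining 6 listed genes had no probe set of their own, and GBP genes are close copies, so a probe set named for 1 of them may also read another.

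**Figure D2:**
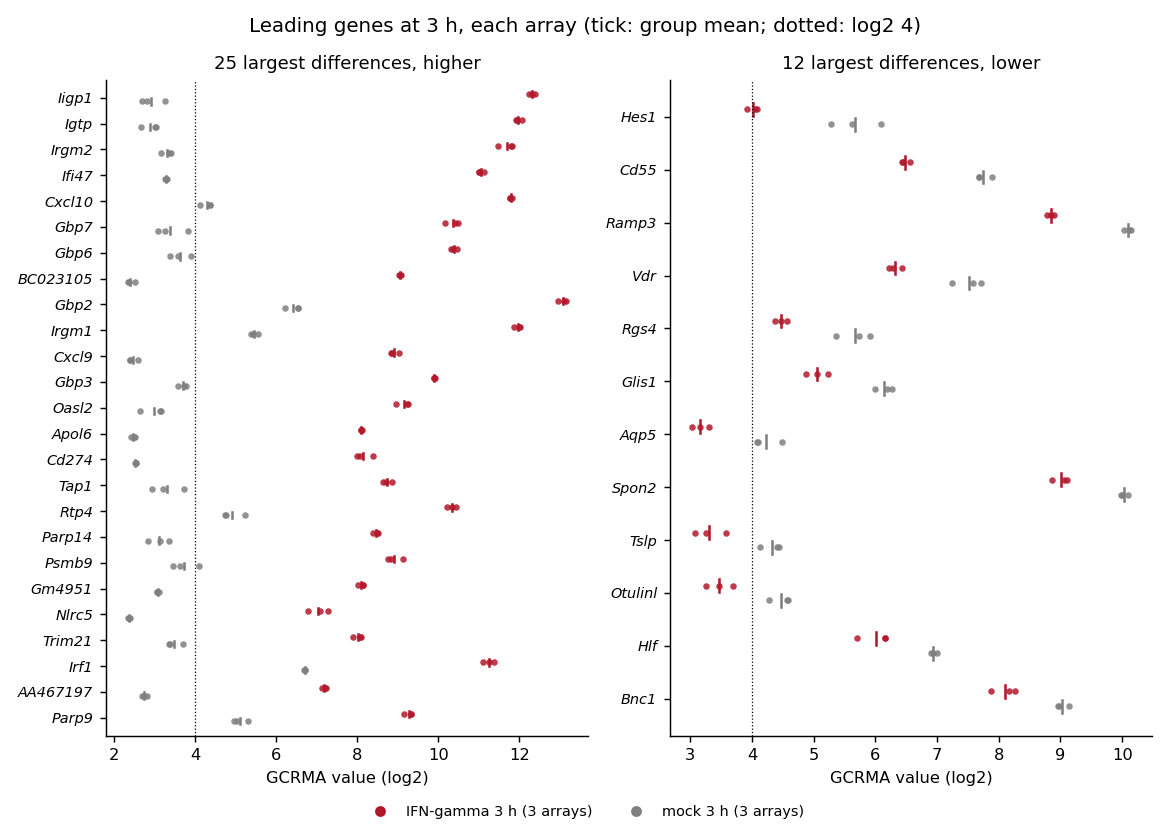
GCRMA value (log2) on each of the 3 IFN-gamma and 3 mock arrays of 3 h for the 25 largest higher and the 12 largest lower differences; short bars are group means and the dotted line is log2 4. Genes were picked only where no IFN-gamma array overlapped a mock array, and 19 of the 25 higher genes have a mock mean below log2 4.

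Beyond these families the 25 largest increases included the chemokine Cxcl10 at 183-fold and the transcription factor Irf1 at 23.3-fold. Cxcl10 measured 11.83, 11.78 and 11.78 with IFN-gamma and 4.13, 4.36 and 4.36 in mock cells (7.51 ± 0.08, adjusted p = 1.03e-10). Several leading genes rose out of background. The lipid-binding protein gene Apol6 measured 8.09, 8.10 and 8.11, against 2.42, 2.49 and 2.52 in mock cells. Cd274, the ligand of the inhibitory T cell receptor PD-1, measured 7.99, 8.06 and 8.40, against 2.54, 2.51 and 2.53. Among them were 3 symbols to which no role is given here, BC023105 (9.09, 9.03 and 9.07 with IFN-gamma, 2.36, 2.51 and 2.34 in mock cells), AA467197 (7.21, 7.22 and 7.13, against 2.69, 2.80 and 2.74) and Gm4951 (8.14, 8.14 and 8.03, against 3.07, 3.11 and 3.05). Probe sets without a single gene symbol made up 113 higher and 34 lower calls. The largest difference on the array belonged to one of these, which is annotated to 2 genes and therefore not named, at 13.15, 13.11 and 13.19 with IFN-gamma against 3.09, 3.08 and 3.08 in mock cells.

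The promoters of these genes were read for both elements, because GAS and ISRE are what the activated factors bind. RefSeq windows of 300 bases (build GRCm38.p6), from 250 bases before to 50 after the annotated start, were searched for TTCNNNGAA (GAS, a palindrome) and for GAAA followed by any 2 bases and GAAA again, on both strands (ISRE). The windows of 7 genes are printed 5′ to 3′ along the strand of the gene, with matches in capitals. Irf1 has 2 windows, and the one printed was picked by its number of matches. Each of the other genes has 1. Irf1 and Socs3 are shown as regulators with a GAS alone, Igtp, Irgm2 and Gbp7 as GTPases with both elements, Gbp2 with an ISRE alone, and Ifit1 as an antiviral gene that IFN-alpha raised more. They lie at chr11:53769764-53770063, plus strand (Irf1), chr11:117969317-117969616, minus strand (Socs3), chr11:58199306-58199605, plus strand (Igtp), chr11:58214727-58215026, plus strand (Irgm2), chr3:142530086-142530385, plus strand (Gbp7), chr3:142620413-142620712, plus strand (Gbp2), and chr19:34640639-34640938, plus strand (Ifit1).
Irf1: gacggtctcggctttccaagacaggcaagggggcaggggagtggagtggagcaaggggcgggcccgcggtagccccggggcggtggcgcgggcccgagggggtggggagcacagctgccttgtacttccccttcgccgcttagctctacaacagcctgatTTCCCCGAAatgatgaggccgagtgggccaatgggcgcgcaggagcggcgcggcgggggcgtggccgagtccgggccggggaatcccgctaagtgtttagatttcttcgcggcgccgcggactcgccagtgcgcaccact
Socs3: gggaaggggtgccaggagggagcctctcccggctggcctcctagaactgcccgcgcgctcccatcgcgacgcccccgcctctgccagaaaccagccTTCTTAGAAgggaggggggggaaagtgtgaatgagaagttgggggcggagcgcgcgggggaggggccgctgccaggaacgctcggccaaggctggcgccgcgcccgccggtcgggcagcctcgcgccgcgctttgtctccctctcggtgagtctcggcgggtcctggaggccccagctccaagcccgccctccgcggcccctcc
Igtp: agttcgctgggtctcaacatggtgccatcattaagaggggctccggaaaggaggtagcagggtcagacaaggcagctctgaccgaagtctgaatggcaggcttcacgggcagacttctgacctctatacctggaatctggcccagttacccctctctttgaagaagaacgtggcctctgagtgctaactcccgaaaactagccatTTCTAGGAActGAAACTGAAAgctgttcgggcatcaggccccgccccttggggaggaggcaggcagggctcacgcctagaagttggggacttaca
Irgm2: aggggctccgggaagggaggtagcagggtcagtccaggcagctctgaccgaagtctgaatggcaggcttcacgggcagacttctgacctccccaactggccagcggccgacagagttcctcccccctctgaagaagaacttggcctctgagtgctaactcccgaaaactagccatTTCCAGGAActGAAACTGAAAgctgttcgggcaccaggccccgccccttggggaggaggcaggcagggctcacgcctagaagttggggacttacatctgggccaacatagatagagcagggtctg
Gbp7: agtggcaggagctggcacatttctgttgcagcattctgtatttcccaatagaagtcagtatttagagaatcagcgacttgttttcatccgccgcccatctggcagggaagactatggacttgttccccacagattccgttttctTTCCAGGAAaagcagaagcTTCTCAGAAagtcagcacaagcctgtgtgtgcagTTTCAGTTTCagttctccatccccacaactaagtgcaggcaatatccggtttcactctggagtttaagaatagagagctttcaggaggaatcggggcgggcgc
Gbp2: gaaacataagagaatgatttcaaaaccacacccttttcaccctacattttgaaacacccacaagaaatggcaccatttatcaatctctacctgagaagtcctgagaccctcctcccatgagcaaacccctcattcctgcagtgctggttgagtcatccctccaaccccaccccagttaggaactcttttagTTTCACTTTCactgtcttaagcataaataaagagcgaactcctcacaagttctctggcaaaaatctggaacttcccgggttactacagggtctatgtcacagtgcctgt
Ifit1: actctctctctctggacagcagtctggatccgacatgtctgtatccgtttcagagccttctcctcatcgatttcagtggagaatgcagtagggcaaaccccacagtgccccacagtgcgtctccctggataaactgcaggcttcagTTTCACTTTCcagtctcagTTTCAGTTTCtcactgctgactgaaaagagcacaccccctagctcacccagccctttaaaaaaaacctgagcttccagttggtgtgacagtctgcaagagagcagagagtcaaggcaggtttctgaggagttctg

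In Igtp and Irgm2 the 2 elements stand side by side, the GAS starting 45 and 75 bases before the start of transcription and the ISRE 34 and 64 bases before it. Gbp7 holds 2 GAS matches, 106 and 87 bases before its start, and an ISRE at 53. The GAS of Irf1 begins 90 bases before its start and that of Socs3 154, while Ifit1 holds 2 ISRE matches, 104 and 85 bases before, and no GAS. Of the 25 genes with the largest increases 16 matched a window, of which 4 held a GAS (Igtp, Irgm2, Gbp7 and Irf1) and 8 an ISRE. Cxcl9, Ifi47, Oasl2, Cd274, Tap1, Psmb9 and AA467197 held neither in these windows. Across all genes tested with a window, 7717, a GAS was present in 7.85% and an ISRE in 3.62%, and in all 32851 windows of the table in 8.3% and 3.44%. Among the 336 higher genes with a window the shares were 14.9% (GAS) and 13.4% (ISRE), and among the 57 that exceeded a log2 difference of 2 they were 15.8% and 33.3%. The 159 lower genes had 5.66% and 2.52%. Where a gene has several starts a match in any of its windows was counted, with a mean of 1.34 windows for the higher genes and 1.28 for all. With the stricter motif TTCCNGGAA the share was 4.76% of the higher genes and 1.5% of all. These matches are descriptions of letters in a window, and no test was made of them.

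Among the components that carry the signal, Stat2 and Stat3 were higher and the receptor chains of IFN-gamma were not called. Of 12 tested genes for interferon receptors, Janus kinases and STATs, 4 were higher and 0 lower, with a median difference of 0.04. Stat2, a subunit of ISGF3, measured 8.09, 8.32 and 7.69 with IFN-gamma and 3.88, 4.42 and 4.16 in mock cells, 14.7-fold higher (3.88 ± 0.18, adjusted p = 1.3e-06). Stat3, which transmits IL-6 family signals, measured 9.59, 9.596 and 9.69, against 8.12, 8.32 and 8.36 (2.56-fold higher). Both groups were clearly apart for these genes. Jak2 (0.43 ± 0.07) and Ifnar2, a chain of the type I receptor (0.44 ± 0.08), were higher by less than 0.5, and neither passed in the fit of all 24 arrays. Ifngr1 measured 5.62, 5.71 and 6.001 with IFN-gamma and 5.78, 5.91 and 6.13 in mock cells (difference -0.16 ± 0.16, adjusted p = 0.706). The second chain, Ifngr2, gave -0.23 (adjusted p = 0.586). The interferon and mock arrays of both chains overlapped.

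Inhibitors of the pathway rose in part, with the SOCS proteins and Usp18 in front. Of 16 tested inhibitors 6 were higher and 0 lower. Socs1, which binds and blocks the Janus kinases at the IFN-gamma receptor, measured 5.33, 5.53 and 6.11 with IFN-gamma and 2.36, 2.24 and 2.29 in mock cells (at least 3.15-fold higher). Socs3 was abundant already in mock cells, 11.71, 11.52 and 11.62 with IFN-gamma against 8.55, 8.58 and 8.31, and was 8.79-fold higher (3.14 ± 0.13, adjusted p = 4.06e-07). Usp18, which damps the type I receptor, measured 6.91, 6.97 and 6.99, against 2.87, 3.44 and 3.06 (at least 7.76-fold higher). The phosphatase Ptpn1 was 1.54-fold higher (0.63 ± 0.11). Cish had means of 3.81 with IFN-gamma and 2.63 in mock cells, both below log2 4, and its call ended with values below 4 set to 4 (adjusted p = 0.95). The call of Socs2 (0.82, adjusted p = 0.0321) ended under the same setting and without IFN-gamma replicate 2 or 3 or any 1 mock array (adjusted p 0.0855 to 0.124).

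Transcription regulators that respond to interferon were higher for 7 of 12 tested, and 0 were lower (median 1.00). Irf1, the factor that IFN-gamma is best known for inducing, measured 11.11, 11.26 and 11.37 with IFN-gamma and 6.71, 6.69 and 6.71 in mock cells, a difference of 4.54 ± 0.08 (adjusted p = 1.32e-09). Irf9, the DNA-binding subunit of ISGF3, measured 8.07, 7.88 and 7.91, against 4.56, 4.15 and 4.94 (10.6-fold higher). Nlrc5, the transactivator of MHC class I genes, measured 7.28, 7.07 and 6.78, against 2.37, 2.39 and 2.35 (at least 8.26-fold higher). All 3 stood far outside the spread of the mock arrays. The AP-1 family member Batf2 was at least 1.87-fold higher, the STAT-interacting protein Nmi 2.76-fold and the NF-kB cofactor Bcl3 2.17-fold. Irf7, which amplifies type I interferon, stayed below log2 4 in both groups (2.78, 2.95 and 3.08 with IFN-gamma, 2.47, 2.48 and 2.37 in mock cells), and its call (difference 0.49, adjusted p = 0.0223) was lost with values below 4 set to 4 and without IFN-gamma replicate 2 or 3 or any 1 mock array (0.0645 to 0.0827). Irf2, a partner and antagonist of Irf1, was uneven with IFN-gamma (4.84, 4.32 and 5.45, against 4.11, 3.92 and 3.95) and did not pass (difference 0.88, adjusted p = 0.0762), although it did with the replicate block (0.0267) and without IFN-gamma replicate 2 (0.0081). Irf3 gave -0.11 and Irf5 0.21, neither of them called.

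In antigen presentation on MHC class I the peptide transporter gave the largest differences. Of 12 tested class I and peptide loading genes 9 were higher and 0 lower, with a median of 0.92. Tap1 and Tap2 form the transporter that carries peptides into the endoplasmic reticulum. Tap1 measured 8.70, 8.65 and 8.86 with IFN-gamma and 2.95, 3.74 and 3.22 in mock cells (at least 26.7-fold higher), and Tap2 measured 9.09, 9.08 and 8.91, against 6.18, 6.13 and 6.35 (7-fold higher). The Tap2 call did not hold in the fit of all 24 arrays (adjusted p = 0.133). Tapbpl, a peptide editor, was 6.16-fold higher, the loading chaperone Tapbp 2.78-fold, the class Ib molecule H2-M3 2.68-fold and the trimming peptidase Erap1 2.37-fold. Among the classical heavy chains H2-K1 measured 10.79, 10.74 and 10.73 with IFN-gamma and 10.41, 10.31 and 10.19 in mock cells (1.36-fold), and H2-D1 measured 11.66, 11.79 and 11.57, against 11.31, 11.19 and 11.14 (1.37-fold), a call that ended without mock replicate 2 (adjusted p = 0.0524). B2m, the shared light chain, was 1.51-fold higher (0.59 ± 0.07). Heavy chain genes are close copies of each other, so a probe set may read more than 1 of them. The chaperones Calr (-0.02), Pdia3 (-0.02) and Canx (-0.00) were not called. In the fit of all 24 arrays 4 of the 9 passed.

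The immunoproteasome, whose subunits replace those of the constitutive core and change which peptides are cut, was higher in 3 of 5 genes tested with its activators. Psmb9 measured 8.77, 8.82 and 9.12 with IFN-gamma and 3.64, 3.47 and 4.09 in mock cells (at least 29.3-fold higher, 5.17 ± 0.18, adjusted p = 1.82e-07). Psmb10 measured 9.30, 9.20 and 8.91, against 6.43, 6.30 and 6.20 (7.1-fold higher). The activator subunit Psme1 was 2.02-fold higher, while Psme3 (-0.09) and Psme4 (-0.09), which belong to other proteasome activators, were not called. None of 31 constitutive proteasome subunits passed in limma, and their differences ran from -0.09 to 0.17. Among measured genes Psmb9, Tap1 and Tap2 follow each other in the RefSeq gene table, with Psmb8, which was below the filter, between Tap1 and Tap2. Of the measured genes around them, Brd2 on one side (-0.06) and H2-Ea on the other (0.13) were not called. Of 15 MHC class II presentation genes 3 were tested, the lysosomal enzymes Ifi30 (-0.12), Ctsl (-0.08) and Ctsb (0.04), and 0 passed.

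Chemokines were higher for 8 of 12 tested, and 0 were lower (median 1.19). Cxcl9, which with Cxcl10 recruits activated T cells through Cxcr3, measured 8.85, 9.02 and 8.83 with IFN-gamma and 2.60, 2.40 and 2.40 in mock cells (at least 29.9-fold higher, 6.43 ± 0.12, adjusted p = 1.63e-09). Monocyte chemokines that were abundant in mock cells were higher too. Ccl2 measured 11.53, 11.53 and 11.53, against 9.26, 9.22 and 9.28 (4.85-fold higher), and Ccl7 measured 10.18, 10.14 and 10.75, against 7.33, 7.39 and 8.11 (6.7-fold higher). Replicate 3 was the highest for Ccl7 in both groups. The eosinophil chemokine Ccl11 measured 5.67, 5.75 and 5.76, against 3.13, 2.99 and 3.09 (at least 3.31-fold higher). Smaller increases were those of Ccl8 (2.4-fold), the neutrophil chemokine Cxcl1 (2.17-fold) and Cx3cl1 (1.77-fold). Cxcl5 (0.26), Cxcl12 (0.16) and Ccl9 (0.08) were not called.

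Of 8 tested cytokines 3 were higher and 3 lower. Il15, which sustains natural killer and memory T cells, measured 6.05, 5.57 and 5.75 with IFN-gamma and 4.70, 4.46 and 5.03 in mock cells (2.09-fold higher), and its receptor chain Il15ra measured 5.83, 6.03 and 5.80, against 3.15, 2.63 and 2.51 (at least 3.7-fold higher). Il6 (0.77, adjusted p = 0.0474) rested on IFN-gamma arrays between 5.73 and 5.78 and on mock arrays between 4.52 and 5.38. It did not pass without mock replicate 3 or any 1 IFN-gamma array (0.087 to 0.138), nor with values below log2 4 set to 4 (0.0907). Csf3, with means of 3.89 and 3.29 below log2 4 in IFN-gamma and mock cells, lost its call with values below 4 set to 4 and without IFN-gamma replicate 2 or 3 or any 1 mock array (0.0554 to 0.0799). Tslp fell to 3.25, 3.57 and 3.08 with IFN-gamma, against 4.40, 4.44 and 4.12 in mock cells, and Lif, an IL-6 family cytokine, to 4.26, 4.31 and 4.08, against 4.71, 4.92 and 5.16. Il11 was lower by a smaller step (-0.54, adjusted p = 0.0247, 0.0524 to 0.0984 without IFN-gamma replicate 1 or 3 or any 1 mock array). Of 9 surface ligands and receptors for lymphocytes 4 were higher, Cd274, Il15ra, Il13ra1 (1.91-fold) and Ly6e (1.44-fold). The adhesion molecule Vcam1 gave 0.46 and passed only with the replicate block (adjusted p = 0.0254, 0.0635 without it).

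**Figure D3:**
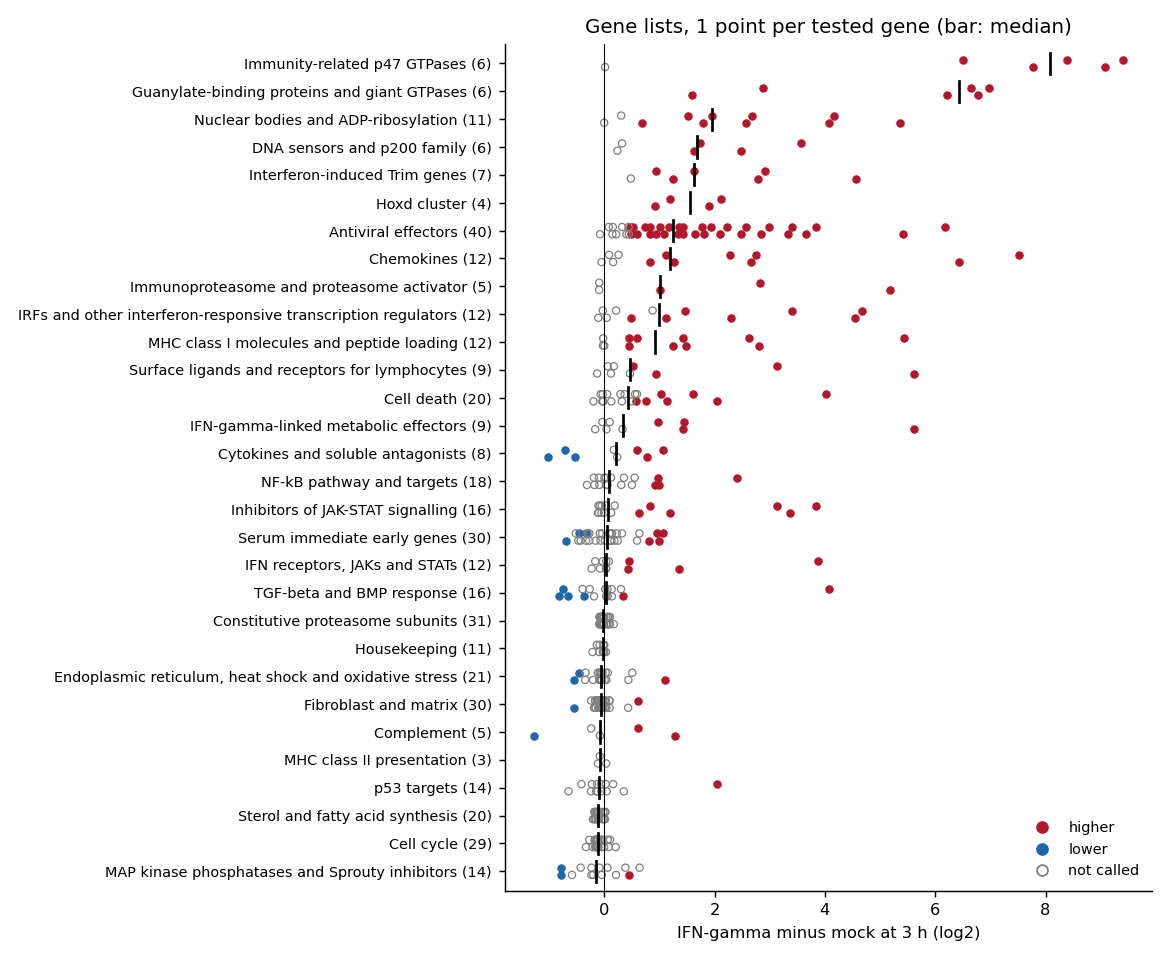
IFN-gamma minus mock at 3 h (log2) for the tested members of 30 gene lists with 2 or more of them, ordered by the median (black bar); red points were higher, blue points lower and open points not called. The GTPase lists lie furthest to the right, with medians of 8.08 and 6.43, and proteasome, housekeeping, sterol and cell cycle genes lie around 0.

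Antiviral effectors, the products that block viral entry, RNA or translation, were higher for 31 of 40 tested, and 0 were lower, with a median of 1.25. Oasl2, a relative of the 2'-5' oligoadenylate synthetases, led the list with 9.26, 9.23 and 8.96 with IFN-gamma and 2.64, 3.15 and 3.15 in mock cells (at least 35.5-fold higher). Rtp4 measured 10.23, 10.33 and 10.44, against 5.22, 4.78 and 4.74 (42.8-fold higher). Ifit1, which binds foreign RNA caps, measured 8.75, 8.91 and 8.70, against 4.99, 5.19 and 5.21 (12.6-fold higher), but did not pass in the fit of all 24 arrays (adjusted p = 0.0683). Its relatives Ifit3 (5.54-fold) and Ifit2 (1.68-fold) were raised less. The RNA sensor gene Ddx58 was 5.93-fold higher and the kinase Eif2ak2, which stops translation on double-stranded RNA, 3.48-fold. Slfn8 was at least 5.9-fold higher, Samd9l 10.1-fold and Samhd1, which depletes nucleotides, 7.15-fold. By contrast 4 effectors that type I interferon is known for stayed in the background with IFN-gamma. Mx1 measured 3.01, 2.95 and 2.76 with IFN-gamma and 2.83, 2.71 and 2.72 in mock cells, and Rsad2 measured 2.60, 2.54 and 2.53, against 2.55, 2.49 and 2.39. Cmpk2 and Mx2 also had means below log2 4 in both groups. The calls of Oas2, Ube2l6, Ifih1 and Dhx58, with IFN-gamma means of 4.15, 4.47, 3.82 and 3.97, ended with values below 4 set to 4. Those of Isg20 (adjusted p = 0.018) and Tor1aip1 (0.0145) ended without IFN-gamma replicate 2 (0.0798 and 0.0547) and without mock replicate 2 (0.0747 and 0.052), for Isg20 also without IFN-gamma replicate 1 (0.0577) or mock replicate 3 (0.0518), and for Tor1aip1 without IFN-gamma replicate 3 (0.0533).

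Trim ubiquitin ligases were higher for 6 of 7 tested (median 1.62). Trim21, a cytosolic antibody receptor, measured 8.10, 8.08 and 7.90 with IFN-gamma and 3.70, 3.35 and 3.37 in mock cells (at least 16.3-fold higher). Trim12c was 7.54-fold higher, Trim30a 6.93-fold, and Trim25, which activates the RNA sensor encoded by Ddx58, 3.08-fold. Of 6 tested DNA sensors and p200 genes 4 were higher (median 1.68). Zbp1, a sensor of Z-form nucleic acid, measured 6.05, 6.04 and 6.10, against 2.51, 2.50 and 2.50 (at least 4.18-fold higher). Sting1, the adaptor of cytosolic DNA sensing, measured 7.03, 7.16 and 7.11, against 4.67, 4.62 and 4.55 (5.59-fold higher), while the enzyme upstream of it, Cgas, gave 0.24 (adjusted p = 0.42). Ifi202b, already at 11.13, 11.20 and 11.12 in mock cells, reached 12.88, 12.78 and 12.67.

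Nuclear body and ADP-ribosylation genes were higher for 9 of 11 tested (median 1.95). Parp14 measured 8.50, 8.49 and 8.40 with IFN-gamma and 3.13, 2.84 and 3.36 in mock cells (at least 22.1-fold higher), with a second probe set at a difference of 1.37. Parp9 measured 9.33, 9.33 and 9.16, against 5.31, 4.97 and 5.04 (18-fold higher), and its partner ligase Dtx3l measured 8.99, 8.78 and 9.08, against 4.87, 4.94 and 4.81 (16.9-fold higher). Among measured genes these 3 follow each other in the RefSeq table. The nearest measured genes on either side, Slc49a4 (-0.08) and Kpna1 (-0.24), were not called. Of the nuclear body proteins Sp100 was at least 1.62-fold higher and Pml 1.61-fold, whereas Daxx gave 0.31 (adjusted p = 0.0691).

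In the cell death list 7 of 20 tested genes were higher and 0 lower (median 0.43). Xaf1, an antagonist of an inhibitor of apoptosis, measured 8.28, 8.36 and 8.30 with IFN-gamma and 4.58, 4.29 and 4.01 in mock cells (16.2-fold higher). The death receptor gene Fas measured 9.01, 8.96 and 8.76, against 6.79, 7.08 and 6.74 (4.1-fold higher). Casp4, which senses bacterial lipopolysaccharide, was 3.06-fold higher, the TNF receptor Tnfrsf1a 2.04-fold, and Mlkl, the executor of necroptosis, 2.21-fold. Gsdmd (0.76, adjusted p = 0.0475) lost its call without IFN-gamma replicate 1 or 2 or any 1 mock array (0.0971 to 0.164), and with values below log2 4 set to 4 (0.0902). Bak1 and Bid passed only with the replicate block (adjusted p = 0.00871 and 0.00266, 0.0759 and 0.0581 without it).

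Of 9 tested metabolic effectors linked to IFN-gamma 4 were higher and 0 lower. Besides Apol6 these were Wars, the tryptophanyl-tRNA synthetase (9.58, 9.65 and 9.61 with IFN-gamma, 8.23, 8.20 and 8.10 in mock cells, 2.71-fold higher), the leucine aminopeptidase Lap3 (1.96-fold) and the uridine phosphorylase Upp1 (at least 1.56-fold). Gch1, which makes a cofactor for nitric oxide synthesis, gave 0.33 (adjusted p = 0.341, 0.042 with the replicate block). Of 5 tested complement genes the proteases of the classical pathway C1s1 (10.87, 10.85 and 10.71 with IFN-gamma, 9.46, 9.61 and 9.52 in mock cells, 2.43-fold higher) and C1ra (1.53-fold) were higher, and Cd55, which protects cells from complement, was lower. Neither protease passed in the fit of all 24 arrays (adjusted p = 0.269 and 1). NF-kB pathway genes were higher for 4 of 18 tested, Tnfaip2 (10.74, 10.77 and 10.75 with IFN-gamma, 8.22, 8.50 and 8.31 in mock cells, 5.32-fold higher), Sod2 (1.99-fold), Nfkbiz (1.97-fold) and Map3k8 (at least 1.42-fold). The inhibitor genes Nfkbia and Tnfaip3 were not among them, with Tnfaip3 at 4.25, 3.80 and 4.06, against 2.92, 3.92 and 3.77.

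Outside immunity, the Hoxd cluster of developmental regulators and the activin antagonist Fst were raised. Fst measured 10.18, 9.997 and 10.30 with IFN-gamma and 6.10, 6.14 and 6.04 in mock cells, 16.7-fold higher (4.07 ± 0.10, adjusted p = 1.07e-08). Hoxd3os1, a non-coding transcript of the cluster, measured 8.41, 8.27 and 8.58, against 6.13, 6.36 and 6.405 (4.35-fold higher). Hoxd3 measured 5.73, 5.76 and 5.21, against 3.50, 3.90 and 3.596 (at least 2.97-fold higher). Hoxd8 measured 9.58, 9.71 and 9.65, against 8.44, 8.43 and 8.52 (2.27-fold higher), and Hoxd9 measured 8.004, 7.87 and 8.05, against 7.04, 6.96 and 7.15 (1.89-fold higher). These were 4 of 4 tested members, with a median of 1.54. Of the other 6 listed, 5 lay below the filter and 1 had no probe set of its own. The list was chosen with earlier results of these data known, so the count is a description and not a separate finding about the cluster. Gm38462, which stands between Hoxd9 and Hoxd8 among the measured genes of the RefSeq table, was also higher (0.60). The nearest measured genes outside the cluster were Lnpk (-0.01) on one side and Mtx2 (0.17) on the other, and neither was called. Overlapping and antisense transcripts of the cluster can share probe sets, which was not tested here.

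The genes that fell with IFN-gamma did so by less than the leading increases, and regulators of transcription and signalling were among them. Hes1, a repressor downstream of Notch, fell to 4.05, 4.09 and 3.92 with IFN-gamma, against 5.62, 5.28 and 6.09 in mock cells (-1.65 ± 0.18, adjusted p = 0.000437). Cd55 fell to 6.55, 6.43 and 6.44, against 7.68, 7.69 and 7.89 (-1.28 ± 0.09). Ramp3, which modifies receptors for calcitonin family peptides, fell to 8.84, 8.78 and 8.89, against 10.12, 10.14 and 10.02. In each of these 3 genes the lowest mock array stood more than 1 log2 unit above the highest IFN-gamma array. Vdr, the vitamin D receptor, fell to 6.22, 6.28 and 6.43, against 7.72, 7.58 and 7.24, and Rgs4, which shortens G protein signals, to 4.48, 4.37 and 4.57, against 5.73, 5.36 and 5.92. The zinc finger factor Glis1 fell by 1.10 on the log2 scale, the secreted matrix protein Spon2 by 1.02, the transcription factor Hlf by 0.94 and the zinc finger factor Bnc1 by 0.93. Aqp5, Tslp and Otulinl had IFN-gamma means of 3.16, 3.30 and 3.47, below log2 4, and with values below 4 set to 4 the calls of Aqp5 (adjusted p = 0.347) and Tslp (0.111) were lost. In the fit of all 24 arrays Cd55, Vdr, Glis1 and Aqp5 passed and the other 8 of the 12 largest decreases did not (adjusted p from 0.11 to 1).

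A minority of the tested genes of growth factor signalling were called, in both directions. Of 30 tested serum immediate early genes 4 were higher and 3 lower, where 4.61% of all genes were higher and 2.22% lower. Jun measured 10.45, 10.33 and 10.47 with IFN-gamma and 9.19, 9.29 and 9.56 in mock cells (2.1-fold higher), Egr2 was 1.75-fold higher and the mRNA decay factor Zfp36 1.93-fold. Egr3 fell to 7.43, 7.22 and 7.27, against 8.01, 7.95 and 8.05, and Mycn to 6.16, 6.15 and 6.03, against 6.65, 6.61 and 6.47. The calls of Atf3 (adjusted p = 0.035) and Zfp36l1 (0.0155) were lost without single arrays, that of Atf3 without any of the 6 (0.0582 to 0.13) and that of Zfp36l1 without mock replicate 2 or IFN-gamma replicate 1 (0.0716 and 0.0626). None of the 7 passed in the fit of all 24 arrays. Of 14 tested MAP kinase phosphatases and Sprouty-type inhibitors, Dusp1 (-0.78 ± 0.10) and Dusp14 (-0.79 ± 0.08) were lower and Spred1 was higher (0.45, adjusted p = 0.0523 without IFN-gamma replicate 1). None of these inhibitors passed in the fit of all 24 arrays. Of 16 tested TGF-beta and BMP response genes Fst and Bambi (0.33) were higher and Id4 (-0.83), Tgfb2 (-0.67), Tgfb3 (-0.76) and Smad3 (-0.37) lower. Bambi, Tgfb3 and Smad3 each lost the call without any 1 of 4 or 5 arrays, IFN-gamma replicate 1 among them for all 3 (0.0896, 0.0941 and 0.122). Tgfb3 also lost it with values below log2 4 set to 4 (0.0521). Id1 (-0.40) passed only with the replicate block (adjusted p = 0.00857).

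None of 29 tested cell cycle genes, 20 sterol and fatty acid synthesis genes and 11 housekeeping genes passed in limma, with medians of -0.12, -0.11 and -0.02. Of 30 fibroblast and matrix genes the protease inhibitor Timp3 was higher (1.54-fold) and the receptor Pdgfrb lower (-0.54). Among 21 stress genes Gclm, the regulatory subunit of glutathione synthesis, was higher (9.24, 9.32 and 9.46 with IFN-gamma, 8.36, 8.06 and 8.26 in mock cells, 2.15-fold higher). The catalytic subunit Gclc was lower (-0.45, adjusted p = 0.0273, and 0.0603 to 0.106 without IFN-gamma replicate 1 or 3 or mock replicate 1 or 3), and so was the chaperone Hsph1 (-0.55). Of 14 tested p53 targets Fas alone was called. The single leukocyte marker above the filter, Cd14, was lower (5.28, 5.18 and 5.03 with IFN-gamma, 5.71, 5.98 and 5.59 in mock cells).

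The direct contrast with IFN-alpha at 3 h asked which of these changes differ between the interferons. In limma 522 probe sets were higher with IFN-gamma than with IFN-alpha (2.7%) and 471 lower (2.44%), together 5.14%. Of the 434 genes that IFN-gamma raised over mock, 232 were higher than with IFN-alpha, 72 lower and 130 not called different. Of the 209 lowered genes 74 were lower than with IFN-alpha and 0 higher. Among the 8778 genes not called against mock, 50 were higher and 130 lower than with IFN-alpha. Both contrasts used the same IFN-gamma arrays. Genes picked for high or low values there lean to the same side of IFN-alpha, so these splits are in part set by the selection. Cxcl9 had the largest difference in favour of IFN-gamma, 8.85, 9.02 and 8.83 with IFN-gamma and 4.07, 3.87 and 3.64 with IFN-alpha, whose mean was below log2 4 (5.04 ± 0.12, adjusted p = 2.54e-08). Fst measured 10.18, 9.997 and 10.30 with IFN-gamma and 6.24, 6.47 and 6.31 with IFN-alpha (3.81 ± 0.10). Irf1 measured 11.11, 11.26 and 11.37, against 7.72, 7.63 and 7.69 (3.56 ± 0.08). Socs3 and Socs1 were higher with IFN-gamma by 3.04 and 2.84, Apol6 by 3.09, Cd274 by 2.55 and Cyp26b1, which degrades retinoic acid, by 2.55.

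In the antiviral list most members were lower with IFN-gamma than with IFN-alpha. Of 40 tested effectors 35 were lower and 1 was higher, Samhd1 (1.43, adjusted p = 6.68e-06). The count of lower members is in part set by the filter. Rsad2, Mx1, Mx2 and Cmpk2 had means below log2 4 with IFN-gamma and in mock cells. At 3 h such genes could pass the filter only through the IFN-alpha arrays, so their lower values with IFN-gamma are not independent of it. The median difference from mock was 1.25 with IFN-gamma and 3.62 with IFN-alpha. Rsad2 measured 2.60, 2.54 and 2.53 with IFN-gamma and 9.95, 10.11 and 10.05 with IFN-alpha (-7.48 ± 0.07, adjusted p = 1.33e-10). Mx1 measured 3.01, 2.95 and 2.76, against 9.27, 9.52 and 9.14, and Ifit3 measured 6.78, 6.77 and 6.81, against 12.15, 12.10 and 12.18. The difference from IFN-alpha was -4.64 for Usp18 and -4.05 for Ifit1, both of them above mock with IFN-gamma. Ifit1bl1, at 2.96 with IFN-gamma, 8.67 with IFN-alpha and 2.66 in mock cells, and Irf7, at 2.93, 6.73 and 2.44 in the same order, were near background with IFN-gamma. The same limit of the filter holds for these genes.

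Other groups were divided or shared. The 5 raised p47 GTPases were all higher with IFN-gamma than with IFN-alpha, by 0.80 (Irgm2) to 1.36 (Iigp1), and so were 5 of the 6 GBPs. Of these Gbp3 (0.36), Gbp7 (0.75), Gbp6 (1.29) and Gbp2 (1.48) were above log2 4 with both interferons, while Gbp8 averaged 4.35 with IFN-gamma and 2.86 with IFN-alpha, which is below it. Of 12 class I genes 4 were higher with IFN-gamma and 0 lower, Tap1 (0.84), Tap2 (1.01), Tapbpl (1.54) and Erap1 (0.76). The heavy chains H2-K1 (-0.28) and H2-D1 (-0.29) did not differ by the test. All 4 tested Hoxd genes were higher with IFN-gamma, by 1.24 (Hoxd8) to 2.25 (Hoxd3os1), and their differences from mock with IFN-alpha were -0.34 to -0.06. Of 11 nuclear body and ADP-ribosylation genes 9 were lower with IFN-gamma, with Daxx at -2.90, and Parp3 higher (0.95). Cxcl10 was lower with IFN-gamma (difference -1.20), and Ccl2 was at 11.53 with IFN-gamma and 11.53 with IFN-alpha (difference 0.00, adjusted p = 0.997). In the fit of all 24 arrays 178 probe sets were higher with IFN-gamma and 147 lower. The brightest 18S probe set read 10.9 on IFN-alpha replicate 3, and its part in this contrast was not tested. Among higher genes with a window a GAS was present in 13.3% of the 173 that exceeded IFN-alpha and in 19% of the 58 below it, and an ISRE in 5.78% and 31%.

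**Figure D4:**
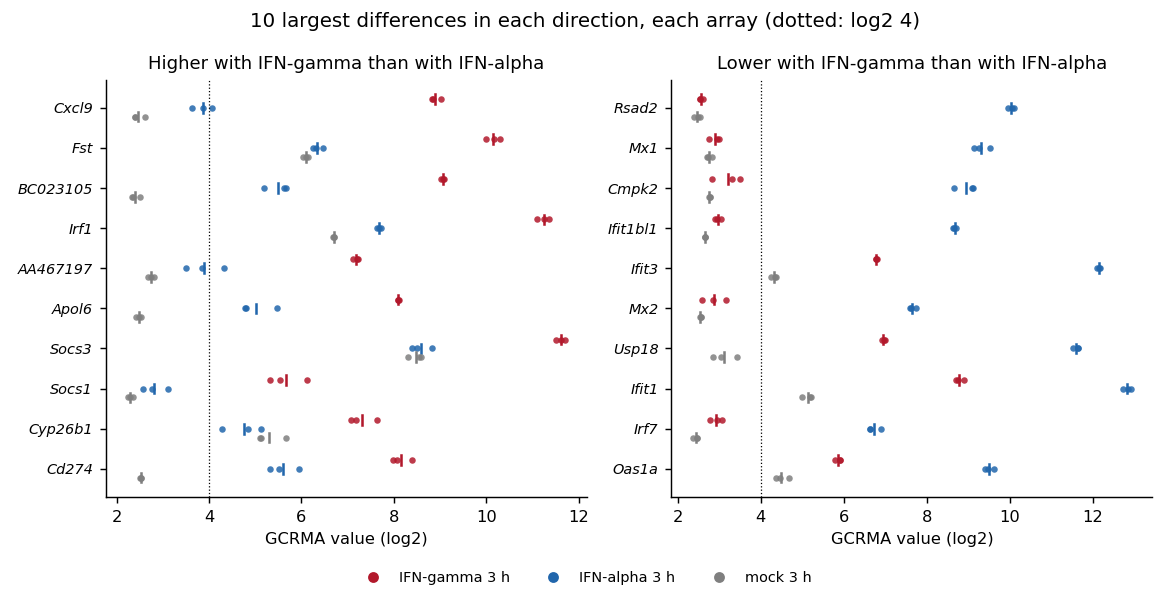
GCRMA value (log2) on each of the 3 arrays with IFN-gamma, IFN-alpha and mock at 3 h for the 10 largest differences between the interferons in each direction; short bars are group means and the dotted line is log2 4. In the left panel the IFN-gamma arrays lie to the right of both other groups, and in the right panel those of Rsad2, Mx1, Cmpk2, Ifit1bl1, Mx2 and Irf7 lie below log2 4 beside the mock arrays.

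Compared with the response after 1 h, measured against mock cells of that time, the 3 h response was larger for all 11 raised GTPases and for part of the antiviral, signalling and presentation genes. The difference of the 2 responses passed in limma over all 24 arrays for 152 probe sets with a larger value at 3 h (0.787%) and 8 with a smaller one (0.0414%), together 0.829%. Against mock at 1 h 84 probe sets were higher (0.435%) and 11 lower (0.057%). The 4sU dose and labelling window differed between the times, so time and labelling cannot be told apart. BC023105 had a difference from mock of 6.66 at 3 h and 0.41 at 1 h (change 6.25 ± 0.22, adjusted p = 8.6e-14), and Gbp6 had 6.77 and 0.53. Ifi47 gave 7.77 at 3 h and 1.85 at 1 h (change 5.92 ± 0.53, adjusted p = 4.24e-07). Oasl2 gave 6.17 and 0.28, Parp14 5.36 and 0.05, and Nlrc5 4.68 and 0.01, at 3 h and at 1 h in that order. At 1 h these 3 genes differed from mock by less than 0.3. Irf1 was at 4.54 and 5.28, Socs3 at 3.14 and 4.08 and Irf9 at 3.40 and 2.49, with no call for the change (adjusted p = 0.951, 0.0637 and 1). Lower at 3 h than at 1 h were the responses of Map3k8 (0.91, against 2.11 at 1 h, adjusted p = 0.0343), Vdr (-1.20, against 0.55) and the potassium channel Kcnk10 (-0.66, against 0.07). Hoxd3os1 gave 2.12 at 3 h and 3.26 at 1 h, a change that did not pass (adjusted p = 0.0637). The 1 h arrays had the wider spread, so a change missing the threshold does not show that responses were equal. Their beta-actin signal was also uneven between the 2 ends, and its part in this comparison was not tested.

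**Figure D5:**
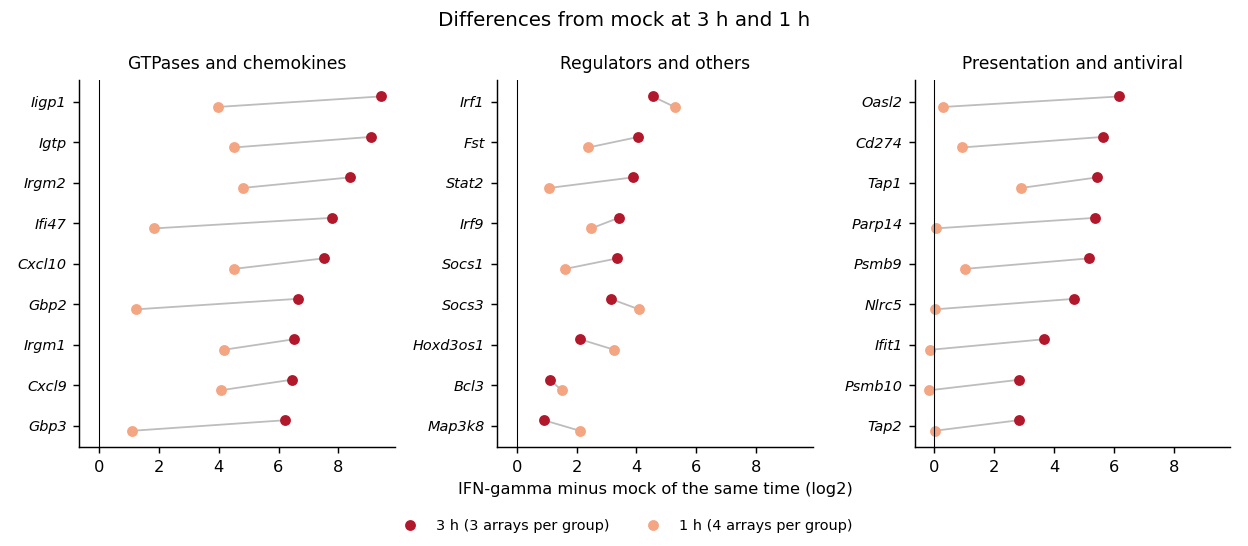
Difference of IFN-gamma minus mock (log2) at 3 h (dark points) and at 1 h (light points) for 27 named genes in 3 panels. GTPases, presentation genes and antiviral genes lie further right at 3 h in these plots, while Irf1, Socs3, Hoxd3os1, Bcl3 and Map3k8 lie further left at 3 h than at 1 h, a change called for Map3k8 alone of these 5. Among genes further right, the change was not called for Cxcl9, Irf9, Socs1, Fst, Tap1, Tap2, Psmb10 and Ifit1.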

How the data were processed

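RNA from NIH-3T3 cells was measured on Affymetrix arrays of 24 samples. The deposited values are log2 signals from GCRMA, per the submitters' processing notes, whose version is not given in the sources used here. GCRMA models background, so dim probe sets pile up at low values. Array control probe sets were left out, and 19305 of 45037 probe sets with log2 4 passed on 3 or more of 24 arrays were kept. Each gene took its kept probe set with the highest mean over all arrays. limma 3.58.1 fitted the 9 arrays of 3 h without a block (6 residual degrees of freedom), and all 24 for the comparison of times. Calls are two-sided at an adjusted p under 0.05. Same-numbered replicates deviated together (correlations of 0.128 to 0.646), so a replicate block was fitted as an alternative. Named genes were the 25 largest increases and 12 largest decreases without overlap between the groups, the 10 largest called differences each way from IFN-alpha and from 1 h, a fixed gene list, the called members of each gene list and up to 3 uncalled ones with the largest differences. Other genes are named in the closing observations, and as neighbours on the chromosome. The members and lists were chosen with earlier results of these data known.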

Additional observations from a re-analysis of the deposited data

Results flagged for a closer look

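By the interaction test in limma over all 24 arrays, the response to IFN-gamma differed between the times for 64 of the 246 named genes. It was higher at 3 h for 61 of them and lower for 3. Some genes were named because they led this same test, so the 64 do not measure how common such changes were. Over all probe sets 160 of 19305 passed (0.829%). The values in parentheses are the 3 h minus the 1 h difference from mock (log2 of GCRMA values, in part within background where a group lay below log2 4). The GTPases were Iigp1 (5.44), Igtp (4.55), Irgm2 (3.59), Ifi47 (5.92), Irgm1 (2.34), Gbp7 (4.87), Gbp6 (6.24), Gbp2 (5.41), Gbp3 (5.09), Gbp2b (2.88) and Gbp8 (1.60). Chemokines, cytokines and surface proteins were Cxcl10 (3.00), Cxcl1 (0.96), Ccl11 (1.95), Il15 (1.62), Il15ra (3.01) and Cd274 (4.69). In antigen presentation Psmb9 (4.16) and Tapbpl (2.31) were among them. Signalling proteins and regulators were Stat2 (2.78), Usp18 (3.80), Nlrc5 (4.67), Batf2 (2.28) and Nmi (1.44). Antiviral effectors were Oasl2 (5.88), Rtp4 (4.56), Ifit2 (0.88), Oas1a (1.34), Herc6 (2.91), Uba7 (2.12), Ube2l6 (1.42), Ddx58 (2.47), Ifih1 (1.499), Dhx58 (1.35), Eif2ak2 (1.57), Samd9l (3.09), Slfn8 (3.40), Samhd1 (1.46) and Tor3a (1.52). Trim and DNA sensor genes were Trim21 (3.49), Trim12c (2.78), Trim30a (2.67), Trim56 (1.24), Ifi202b (1.21) and Zbp1 (3.52). Nuclear body and ADP-ribosylation genes were Parp14 (5.31), Parp9 (3.40), Parp11 (1.77), Parp12 (2.26), Dtx3l (3.64), Sp100 (1.73) and Phf11d (2.63). Cell death and metabolic genes were Fas (1.43), Mlkl (1.03), Xaf1 (3.87), Wars (1.39) and Apol6 (4.78). Of the rest, the response was higher at 3 h for BC023105 (6.25), AA467197 (3.97), Gm4951 (4.82) and Hoxd3 (1.31). It was lower at 3 h for Vdr (-1.75), Map3k8 (-1.20) and Kcnk10 (-0.73). The 4sU dose and window differed between the times, and their part cannot be told apart from that of time.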

How the results depend on the processing

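For IFN-gamma over mock, 779 probe sets higher became 363 in the fit of all 24 arrays and 624 to 729 without 1 array. The 348 lower became 22 with all 24 arrays, 699 with the replicate block, 725 with array weights and 186 to 279 without 1 array (231 without mock replicate 1, 186 without mock replicate 2, 227 without IFN-gamma replicate 1 and 225 without IFN-gamma replicate 2). Against IFN-alpha, 522 higher became 178 with all 24 arrays and 952 with array weights, and 471 lower became 147 and 746. For the times, 152 higher became 427 with the replicate block and 291 with array weights, and 8 lower became 100 with the block, 40 with array weights, 22 with values below 4 set to 4, 4 with a filter above 5, and 5 to 13 without 1 array. The causes were not tested. Of the 246 named genes, 167 of them called, 65 lost the call with all 24 arrays and 17 without some array, while the block lost 0 and added 17. With values below log2 4 set to 4, 16 lost the call and 4 gained one. Without the filter 13 lost it and 2 gained one, and with array weights 2 lost it and 19 gained one. No named gene reversed direction against mock where the main or the alternative fit called it. Against IFN-alpha the larger count changed sides. It was 490 higher and 503 lower with quantile normalization, and 477 higher and 517 lower with median centring. With TTCCNGGAA as the GAS, 4.76% of higher genes held one, against 14.9%. Values near log2 4 limit what can be seen of dim genes, and 3 arrays per group limit the precision.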

Other observations

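The genes of this paragraph were called, stand in none of the lists and were picked after their values were seen, so no theme is drawn from them. Among the largest increases were the ubiquitin ligase gene Rnf19b (9.10, 9.07 and 9.04 with IFN-gamma, 5.90, 5.86 and 6.02 in mock cells, 8.82-fold higher), the IL-18 receptor chain Il18rap (at least 6.56-fold), the cross-linking enzyme Tgm2 (7.33-fold), Ggct (6.34-fold), the sorting nexin Snx10 (6.23-fold) and Rnf213 (6.22-fold). Nod1, a sensor of bacterial cell walls, was at 8.76, 8.89 and 8.84 with IFN-gamma and 6.60, 6.35 and 6.72 in mock cells (4.83-fold higher). Tlr3, a sensor of double-stranded RNA with mock arrays below log2 4, was at least 2.06-fold higher, and the receptor Notch1, with a mock mean below 4, at least 3.6-fold. The hexokinase gene Hk2 was 4.82-fold higher and F3, tissue factor, 4.86-fold. Each fold is that of 1 probe set, and other probe sets of some genes gave less. Log2 differences ran from 1.05 to 2.87 for Tgm2 and 1.49 to 2.64 for Snx10. They ran from 0.54 to 1.91 for Tlr3 and 1.13 to 2.06 for Notch1. Probe sets lay closer together for Rnf19b (2.97 to 3.14) and Il18rap (2.58 to 2.91).

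Of lower genes picked in the same way, the transcription factor genes Twist2 (difference -0.73, adjusted p = 0.00916 in the limma fit of all 24 arrays) and Nr2f1 (-0.74, 0.0345) passed in both fits. Snai1 measured 7.65, 7.62 and 7.87 with IFN-gamma and 8.53, 8.40 and 8.53 in mock cells (-0.78), and did not pass with all 24 arrays (adjusted p = 1). Neither did Ptch1, the receptor of Hedgehog ligands (-0.75, adjusted p = 0.313).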
